A study of Mus musculus with 112 samples.

Results

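Snhg5, Snhg6, Snhg8, Snhg15, Snhg17, Snhg20, Epb41l4aos and 1110038B12Rik are 8 long noncoding RNA (lncRNA) genes that host small nucleolar RNAs (snoRNAs). They were chosen by symbol, and all 8 were present in each of 4 lncRNA tables that together hold 1624 lncRNAs. The cells were mouse 46C embryonic stem cells of strain 129/Ola, grown with leukemia inhibitory factor. In the first experiment, cells were nucleofected with an antisense morpholino oligonucleotide (AMO) and taken after 2 h: a control, U1 or U2 AMO at 75 µM, or U1+U2 AMO at 50 µM. In the second, a line whose SNRNP70, a protein of the U1 small nuclear ribonucleoprotein (snRNP), carries an auxin-inducible degron (SNRNP70AID) was taken at 0 h or after 4 h in 500 µM indole-3-acetic acid (IAA), the auxin that triggers degradation. In the third, SLAM-seq, the same degron cells were given IAA for 2 h and then 4-thiouridine for 3 h, or 4-thiouridine for 3 h without IAA, so that reads with T-to-C changes mark RNA made during labelling. Total RNA of the first 2 experiments was measured in chromatin, cytoplasm, nucleoplasm and whole cells, polyA RNA of the degron cells in chromatin and whole cells, and SLAM-seq RNA in the 3 fractions. Each group had 3 libraries, all of them used except in whole cells with control AMO. There 2 of the 3 were used, because the column left for library 3 names no fraction. How many clones of the degron line were used is not given in the sources used here, and the level of SNRNP70 left at 4 h was not analysed here.

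SnoRNAs of these genes lie in introns and are trimmed out of the intron after splicing, so that one primary transcript gives both a small guide RNA and a spliced host RNA. The guide RNAs direct chemical modification of ribosomal and spliceosomal RNA: box C/D snoRNAs (Snord genes) guide ribose methylation and box H/ACA snoRNAs (Snora genes) guide pseudouridylation. The spliced host RNAs often carry only short reading frames, and many are short-lived in the cytoplasm because ribosomes on them trigger nonsense-mediated decay. U1 snRNP recognises the 5′ splice site and also shields transcripts from premature cleavage and polyadenylation, while U2 snRNP recognises the branch point. The series asked how loss of U1 function changes where noncoding RNAs are held in the cell.

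In the RefSeq annotation of GRCm38.p6, 7 of the 8 loci hold at least 1 annotated snoRNA gene. Snhg5 (chr9:88521052-88522897) holds 2 snoRNA genes of 72 bases, Snhg6 (chr1:9942025-9944118) holds Snord87 of 74 bases, and 1110038B12Rik (chr17:34950235-34952471) holds Snord52 of 59 bases and another of 63 bases. Longer snoRNA genes lie in the other hosts. Snhg8 (chr3:123507552-123508336) holds Snora24 of 130 bases, Snhg15 (chr11:6525591-6528760) holds 1 of 133 bases, Snhg17 (chr2:158353700-158361522) holds 2 of 131 and 132 bases, and Epb41l4aos holds Gm23639 of 132 bases. Snhg20 (chr11:117076783-117078955) holds the microRNA gene Mir6516 and no snoRNA gene in this table. The span of Snhg6 overlaps that of the protein-coding gene Mcmdc2, and whether the authors counted by strand is not given in the sources used here, so its values may include reads of Mcmdc2.

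Many snoRNA host genes start within a run of pyrimidines, the 5′ terminal oligopyrimidine start that they share with ribosomal protein genes. The 100 bases around the annotated start of 6 members (50 before, 50 after) are shown because start-site sequence is a feature that the choice of genes did not use. They come from RefSeq promoters of GRCm38.p6, 5′ to 3′ on the strand of the gene. Capitals mark TATAAA where it is present and the longest run of C and T within 25 bases of the start.
Snhg5: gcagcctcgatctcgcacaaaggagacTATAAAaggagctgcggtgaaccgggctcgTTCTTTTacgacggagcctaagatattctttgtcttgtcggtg
Snhg8: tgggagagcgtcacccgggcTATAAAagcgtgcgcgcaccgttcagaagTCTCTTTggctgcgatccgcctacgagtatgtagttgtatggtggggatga
1110038B12Rik: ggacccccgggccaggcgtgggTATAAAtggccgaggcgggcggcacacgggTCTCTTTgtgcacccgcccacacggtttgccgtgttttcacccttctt
Snhg15: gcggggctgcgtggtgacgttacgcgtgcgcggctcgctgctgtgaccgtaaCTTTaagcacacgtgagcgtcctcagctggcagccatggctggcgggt
Snhg17: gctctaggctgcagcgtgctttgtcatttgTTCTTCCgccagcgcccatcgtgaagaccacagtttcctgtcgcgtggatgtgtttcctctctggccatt
Snhg20: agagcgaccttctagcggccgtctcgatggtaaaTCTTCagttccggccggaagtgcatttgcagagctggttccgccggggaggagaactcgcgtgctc
The windows are chr9:88522848-88522947 (minus strand) for Snhg5, chr3:123508287-123508386 (minus) for Snhg8, chr17:34952422-34952521 (minus) for 1110038B12Rik, chr11:6528711-6528810 (minus) for Snhg15, chr2:158361473-158361572 (minus) for Snhg17 and chr11:117076733-117076832 (plus) for Snhg20. TATAAA lay 23 bases before the start of Snhg5, 30 before that of Snhg8 and 28 before that of 1110038B12Rik, so 3 of these 6 windows held it, against 4.94% of 32851 mouse promoters searched on both strands over the same 100 bases. The longest pyrimidine run was 7 bases in Snhg5, Snhg8, Snhg17 and 1110038B12Rik, a length reached by 29.3% of the promoters, 5 bases in Snhg20 (64.7%) and 4 in Snhg15 (84.4%). Counted from the start, the run began at base -1 in Snhg8, 3 in Snhg15 and 1110038B12Rik, and 8 in Snhg5. It began at -20 in Snhg17 and -16 in Snhg20, so in these genes it lay wholly before the annotated start. These are matches of letters and say nothing of what binds there.

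Several facts of the libraries bear on what follows. FPKM, which are fragment counts set per length and depth, were scaled to spike-in RNA by the authors in the fractions, so a general fall on chromatin shows as a fall. The median log2 change of all lncRNAs on chromatin was -0.80 after U1 AMO, -0.65 for total RNA at 4 h of IAA and -0.37 for polyA RNA. Changes are therefore also given after centring each library on its median lncRNA, that is, relative to this general change. In bulk samples, fewer cells of a type and less RNA per cell cannot be told apart. Nothing in the labels ties replicates to separate cultures, and p-values then cover only the spread among these libraries, possibly a technical one. How deeply the FPKM libraries were read is unknown. SLAM-seq libraries held 24927 to 227237 labelled reads in lncRNAs. All 9 lncRNAs listed as typical of embryonic stem cells were measured in control whole cells (0.615 to 62.8 FPKM, median 4.63, sum 173, led by Lncenc1). Of 8 lncRNAs of differentiated cells 5 were measured there (0.775 to 11.9 FPKM, median 2.945, sum 21.2, led by Halr1). The stem cell lncRNAs moved with treatment: 8 of 9 were lower on chromatin after U1 AMO (median change -1.51) and all 9 in total RNA at 4 h of IAA (median -1.46). Of all lncRNAs 51.8% of 1256 and 46.7% of 1260 were lower in these comparisons. The part of the stem cell lncRNAs in the results was not tested. Of 8 lncRNAs known to stay on chromatin, 6 were higher on chromatin than in the soluble fractions of control AMO cells and all 8 in untreated degron cells. The shares of all 1277 lncRNAs that were higher were 59.3% and 68.8%, so these counts say little about how well the fractions were separated.

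All 8 hosts were among the more abundant lncRNAs. In whole cells with control AMO, 1110038B12Rik was at 121 and 110.0 FPKM and Snhg5 at 97.2 and 103, ranks 20 and 25 of 1279 lncRNAs. Snhg8 (74.5 and 71.7 FPKM) and Snhg15 (47.9 and 46.0) came next, and these first 4 did not overlap one another. Snhg20 (39.1 and 35.7 FPKM) and Epb41l4aos (28.7 and 23.8) followed, also without overlap. Snhg6 (18.8 and 17.6) and Snhg17 (16.6 and 18.6), ranks 64 and 66, overlapped and were the lowest. PolyA RNA of untreated degron cells had 1110038B12Rik at 124 ± 8.17 and Snhg5 at 117 ± 3.66 FPKM (SD, n = 3) as the highest, with overlap, and Snhg17 at 16.4 ± 1.78 as the lowest. The order between differed, with Snhg6 (mean 32.7) above Snhg15 (21.5). In total RNA of untreated degron whole cells Snhg5 (mean 84.0) was above 1110038B12Rik (77.2) without overlap. Snhg20 (17.7) had the lowest mean there and overlapped Snhg17 (18.0).

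**Figure D1:**
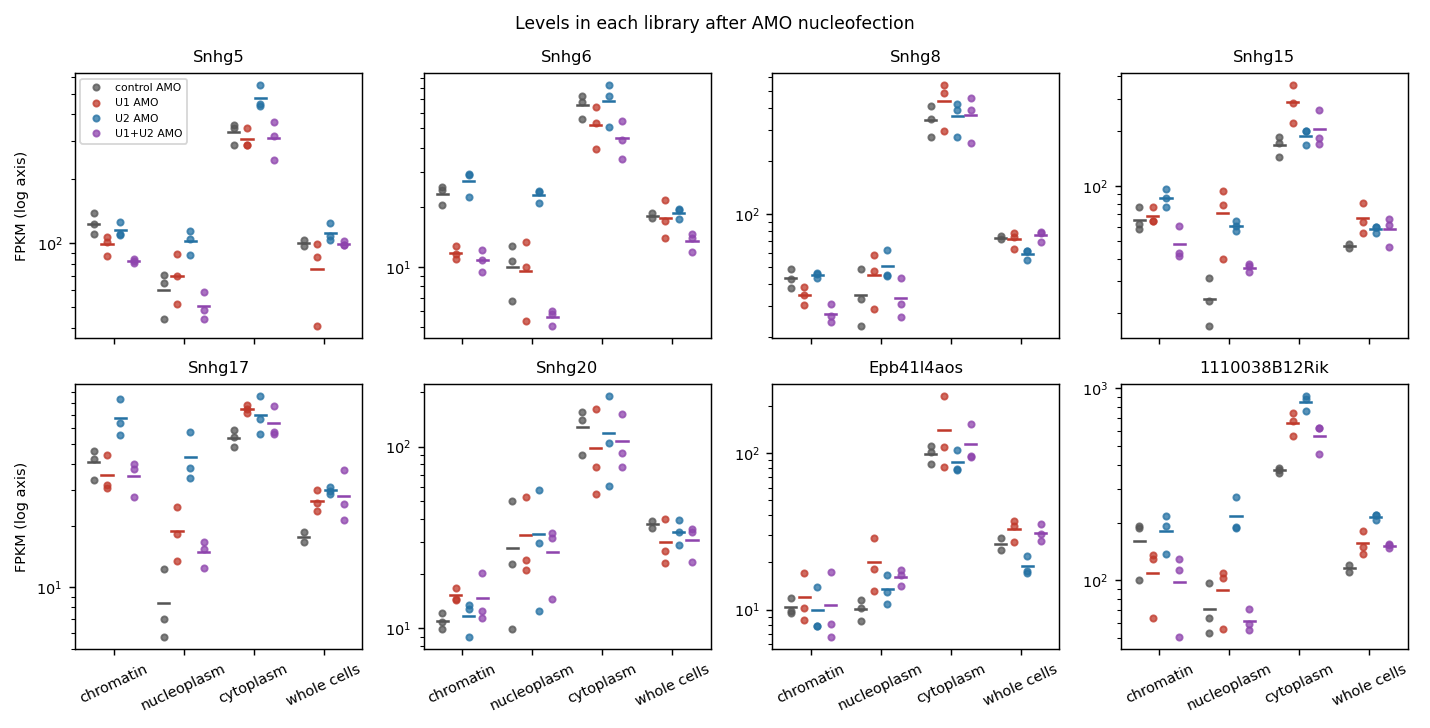
FPKM (log axis) of each host gene in every library of the AMO experiment, by fraction; points are libraries, bars are group means and colours are AMOs. With control AMO the cytoplasmic mean is the highest for every gene, and the nucleoplasmic points of Snhg17 lie between 5.71 and 12.3 with control AMO and between 34.3 and 57.5 with U2 AMO.

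The 8 RNAs differed in where they were held before any treatment. The share of each RNA on chromatin was taken as its chromatin FPKM over the sum of the 3 fractions, library number by library number. With control AMO, Snhg17 had the largest share on chromatin, 39.4% ± 4.03 (SD, n = 3), and Snhg20 (6.80% ± 1.23), Epb41l4aos (8.85% ± 2.12) and Snhg8 (10.5% ± 1.98) the smallest. Shares of Snhg5, Snhg6, Snhg15 and 1110038B12Rik lay between 23.8% ± 1.09 and 26.0% ± 6.69. With control AMO most of each RNA was cytoplasmic, from 52.5% ± 6.43 of Snhg17 to 82.7% ± 1.97 of Epb41l4aos. In the untreated degron line this held only for Snhg8 (65.6% ± 0.304) and Epb41l4aos (67.6% ± 3.67). Cytoplasmic shares of the other members there lay between 24.3% ± 3.55 (Snhg17) and 43.1% ± 0.956 (1110038B12Rik). In untreated degron cells the chromatin shares were 51.0% ± 1.44 for Snhg17, 17.6% ± 5.85 for Snhg20, 11.8% ± 1.4 for Snhg8 and 5.70% ± 2.63 for Epb41l4aos, so the same gene stood at the top. Values of the 2 experiments were scaled separately and are set side by side only.

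In the limma test of chromatin against the mean of both soluble fractions, Snhg17 was higher on chromatin with control AMO (log2 difference 0.96 ± 0.22 (SE), adjusted p = 0.000413), and Snhg8 (-1.30, adjusted p = 3.14e-05), Epb41l4aos (-1.59, adjusted p = 2.96e-05) and Snhg20 (-2.26, adjusted p = 5.46e-05) were lower. That is 1 member higher and 3 lower of 8, where 69.2% of 1277 lncRNAs (59.3% higher, 9.95% lower) passed. The median of the members was -0.15 and that of all lncRNAs 1.10. In untreated degron cells 2 members were higher and 4 lower (background 80% of 1277 lncRNAs (68.8% higher, 11.2% lower)). Snhg17 was again higher (log2 difference 1.06 ± 0.20 (SE), adjusted p = 0.000114) and Snhg5 slightly so (0.29, adjusted p = 0.0335). The call of Snhg5 was lost without any 1 of its libraries other than 0 h chromatin library 2, 0 h cytoplasm library 2, 0 h cytoplasm library 3 and 0 h nucleoplasm library 1 (adjusted p up to 0.143). Epb41l4aos (-2.96), Snhg8 (-1.71), Snhg20 (-1.25) and 1110038B12Rik (-0.67) were lower. These differences depend on the scaling of the fractions: relative to the median lncRNA of each library Snhg17 was at -0.15 (adjusted p = 0.495) with control AMO and -0.82 (adjusted p = 0.000347) in degron cells, and Snhg5 at -1.59 (adjusted p = 5.41e-10). After centring, 7 of 8 members were lower on chromatin with control AMO and all 8 in degron cells.

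On chromatin, U1 AMO lowered Snhg6 and no other member passed the test. Snhg6, the host of Snord87, was at 25.2, 20.6 and 24.4 FPKM in the control AMO libraries and 10.9, 12.8 and 11.7 after U1 AMO. The groups did not overlap, and the mean after U1 AMO was 0.504 of the control (log2 change -0.97 ± 0.17 (SE), adjusted p = 0.000503). In this comparison 56.9% of 1256 lncRNAs (5.1% higher, 51.8% lower) passed on chromatin, and the median was -0.80 against -0.26 for the 8 hosts. Relative to the median lncRNA Snhg6 was at -0.13 (adjusted p = 0.59), while 3 members were then higher and none lower. These were Snhg5 at 0.52 (adjusted p = 0.0161), Snhg15 at 0.91 (adjusted p = 0.0117) and Snhg20 at 1.30 (adjusted p = 0.00402). Snhg20 was at 12.2, 9.87 and 10.9 FPKM in control and 16.7, 14.6 and 14.4 in U1 AMO libraries, without overlap (log2 change 0.47 ± 0.22 (SE), adjusted p = 0.0914). 1110038B12Rik was at 192, 187 and 101 FPKM in control and 129.6, 136 and 63.4 in U1 AMO libraries, with library 3 low in both groups (-0.56, adjusted p = 0.24). Numbers paired the chromatin libraries, and with the number as a block 4 more members passed. 1110038B12Rik (adjusted p = 0.00428), Snhg8 (-0.32, adjusted p = 0.0226) and Snhg5 (-0.32, adjusted p = 0.0343) were lower, and Snhg20 (adjusted p = 0.0254) was higher. Adjusted p of these 4 ran from 0.00402 to 0.694 over all alternatives, and centring turned the sign of 1110038B12Rik to 0.28, of Snhg8 to 0.52 and of Snhg5 to 0.52.

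U1+U2 AMO, given at 50 µM, and U2 AMO were compared with the same control libraries as U1 AMO. Snhg6 fell to 12.2, 9.47 and 10.9 FPKM (log2 change -1.10 ± 0.17 (SE), adjusted p = 0.00031), Snhg8 to 30.7, 24.4 and 26.5 from 49, 42.8 and 38.1 (-0.67, adjusted p = 0.00471), and Snhg5 to 80.6, 84.1 and 82.3 from 138, 110.0 and 123 (-0.58, adjusted p = 0.0106). None of these 3 overlapped its control libraries. The 3 lower members of 8 stood against 53% of 1256 lncRNAs (3.82% higher, 49.2% lower) that passed, with medians of -0.51 for the hosts and -0.74 for all. After centring Snhg5 was at 0.22 (adjusted p = 0.285), Snhg8 at 0.13 (adjusted p = 0.693) and Snhg6 at -0.30 (adjusted p = 0.216), and 1 member, Snhg20, was higher (1.17). With the number as a block 1110038B12Rik (-0.76, adjusted p = 0.000762) and Snhg15 (-0.45, adjusted p = 0.00965) also passed. Their adjusted p ran from 0.000762 to 0.961 over all alternatives, and their centred values were 0.03 and 0.35.

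U2 AMO moved no member past the threshold on chromatin in limma, where 1 had an unadjusted p under 0.05 and 7.8% of 1256 lncRNAs (2.79% higher, 5.02% lower) passed. That member was Snhg17, at 46.5, 42.5 and 33.3 FPKM in control and 63.5, 83.0 and 55.5 in U2 AMO libraries, which did not overlap (log2 change 0.71 ± 0.22 (SE), adjusted p = 0.0713). It passed with the number as a block (adjusted p = 0.00678) and after centring (0.95, adjusted p = 0.0257); over all alternatives its adjusted p ran from 0.00678 to 0.244. The other 7 lay between -0.12 (Epb41l4aos) and 0.41 (Snhg15).

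In the nucleoplasm Snhg6, Snhg15, Snhg17 and 1110038B12Rik rose after U2 AMO. These are 4 of 8 members with none lower, where 19.4% of 1142 lncRNAs (19.4% higher, 0% lower) passed, and the medians were 1.00 for the hosts and 0.45 for all. Snhg17 went from 12.3, 5.71 and 7.03 to 57.5, 34.3 and 38.2 FPKM, 5.18 times its control mean (log2 change 2.39 ± 0.32 (SE), adjusted p = 0.000214). 1110038B12Rik, the host of Snord52, went from 96.3, 53.3 and 63.6 to 273, 189 and 187 (1.62, adjusted p = 0.00338). Snhg15 went from 31.2, 17.0 and 23.4 to 64.4, 56.9 and 60.4 (1.38, adjusted p = 0.00891). In these 3 genes no U2 AMO library overlapped a control library, and each stayed past the threshold after centring, Snhg17 at 1.87 (adjusted p = 0.000139). Snhg6 rose from 12.7, 6.78 and 10.7 to 23.9, 21.1 and 24.1 FPKM (log2 change 1.22 ± 0.32 (SE), adjusted p = 0.0147). The call was lost without control AMO library 2 or U2 AMO library 1 (adjusted p up to 0.0764) and with centring (0.71, adjusted p = 0.081). Snhg5 (0.79, adjusted p = 0.0724) passed with the number as a block (adjusted p = 0.0144; 0.0144 to 0.47 over all alternatives).

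After U1 AMO 2 of 8 members rose in the nucleoplasm (background 14.2% of 1142 lncRNAs (10.5% higher, 3.68% lower); medians 0.39 for the hosts and -0.00094 for all). Snhg15 reached 94.5, 39.7 and 78.3 FPKM (log2 change 1.51 ± 0.32 (SE), adjusted p = 0.00516) and Snhg17 reached 24.6, 13.5 and 18.2 (log2 change 1.18 ± 0.32 (SE), adjusted p = 0.0231), both above every control library. The call of Snhg17 was lost without any 1 of its libraries other than control AMO library 1 and U1 AMO library 2 (adjusted p up to 0.104) and when only these 2 groups were fitted. Epb41l4aos, the host of Gm23639, was at 11.6, 8.41 and 10.3 in control and 28.6, 13.1 and 18.3 in U1 AMO libraries, without overlap (log2 change 0.91 ± 0.29 (SE), adjusted p = 0.0501), and passed with the block (adjusted p = 0.0102; 0.00679 to 0.204 over all alternatives) and after centring (0.84, adjusted p = 0.00679). U1+U2 AMO gave no call in limma (background 14.7% of 1142 lncRNAs (7.88% higher, 6.83% lower); 3 members with an unadjusted p under 0.05). With the block Snhg6 (-0.78, adjusted p = 0.0342) passed as lower and Snhg17 (0.88, adjusted p = 0.0165) and Epb41l4aos (0.68, adjusted p = 0.0444) as higher, with adjusted p from 0.00693 to 0.366 over all alternatives. After centring these 3 passed in the same directions and Snhg15 was higher (0.66, adjusted p = 0.0486), 3 higher and 1 lower.

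In the cytoplasm 1110038B12Rik rose after each single AMO and no other member passed. Its control libraries held 362, 377 and 385 FPKM, the U1 AMO libraries 678, 565 and 744 and the U2 AMO libraries 878, 911 and 766. Neither treated group overlapped the control. The means were 1.77 and 2.27 times the control mean. The test gave log2 change 0.81 ± 0.20 (SE), adjusted p = 0.0259 for U1 AMO and log2 change 1.18 ± 0.20 (SE), adjusted p = 0.0226 for U2 AMO. Background was 7.33% of 1242 lncRNAs (3.95% higher, 3.38% lower) for U1 AMO and 1.29% of 1242 lncRNAs (0.403% higher, 0.886% lower) for U2 AMO. Both calls were lost when only the 2 groups were fitted. That of U1 was lost without any 1 of its libraries other than U1 AMO library 2 (adjusted p up to 0.117). That of U2 was lost without any 1 of its libraries other than U2 AMO library 2 (adjusted p up to 0.0856). Snhg15 was at 185, 144 and 172 in control and 357, 223 and 286 in U1 AMO libraries, without overlap (log2 change 0.77 ± 0.23 (SE), adjusted p = 0.0671). The numbers paired these libraries, and with the block it passed (adjusted p = 0.0141; 0.0141 to 0.181 over all alternatives). With U1+U2 AMO no member passed in limma, 2 had an unadjusted p under 0.05, and background was 8.21% of 1242 lncRNAs (2.74% higher, 5.48% lower). After centring Snhg15 passed with U1 AMO (0.83, adjusted p = 0.0447) and 1110038B12Rik with U1+U2 AMO (0.76, adjusted p = 0.0338). In whole cells, whose FPKM name no spike-in scaling, 1110038B12Rik rose after U2 AMO from 121 and 110.0 to 206, 219.9 and 218 FPKM (log2 change 0.89 ± 0.14 (SE), adjusted p = 0.00553; background 3.52% of 1251 lncRNAs (2.24% higher, 1.28% lower)). The call was lost without control AMO library 1 or control AMO library 2 (adjusted p up to 0.0698), where the lone control is assumed to vary like the other groups. No member passed in whole cells after U1 AMO (background 13.4% of 1251 lncRNAs (6.24% higher, 7.19% lower)) or U1+U2 AMO (background 11.6% of 1251 lncRNAs (6.24% higher, 5.36% lower)). There were 3 at an unadjusted p under 0.05 in each by limma. After centring 1110038B12Rik (0.60, adjusted p = 0.0111), Snhg15 (0.65, adjusted p = 0.0356) and Snhg17 (0.75, adjusted p = 0.0482) were higher in whole cells with U1 AMO, and 1110038B12Rik with U1+U2 AMO (0.50, adjusted p = 0.0301).

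**Figure D2:**
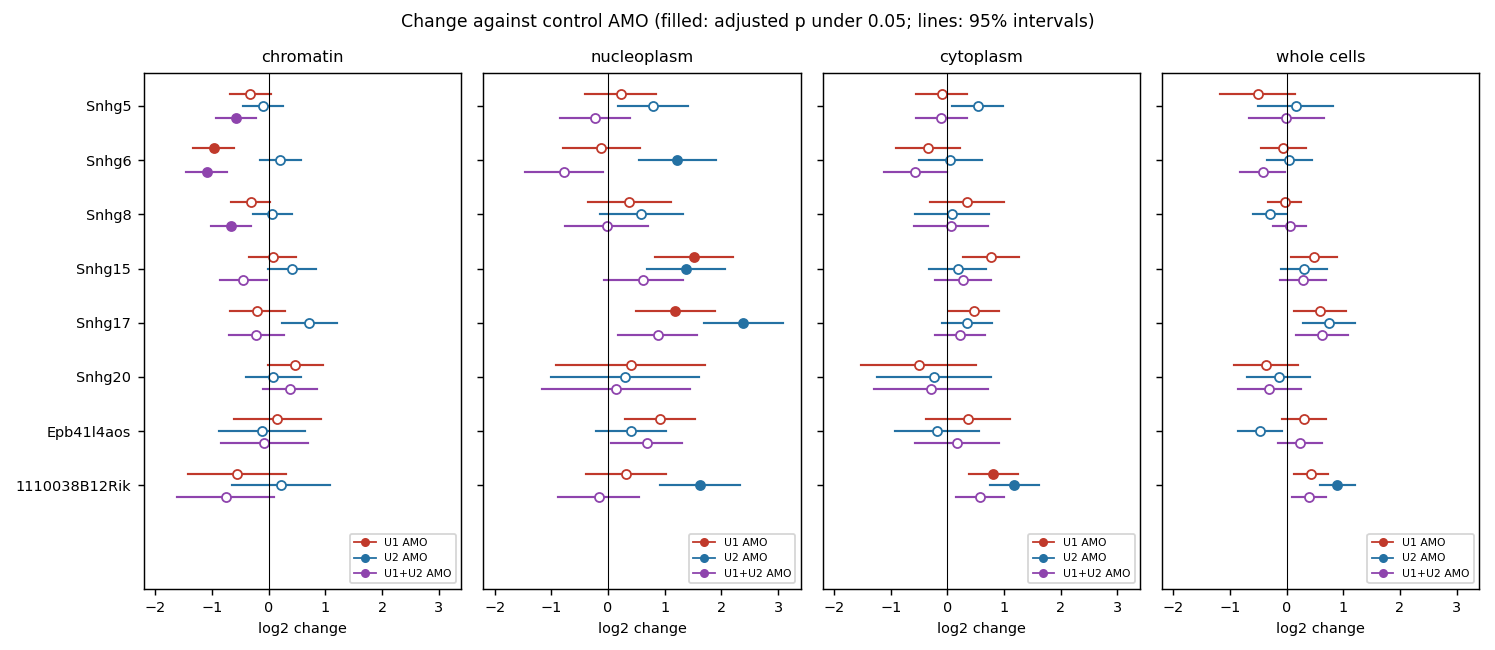
Log2 change against control AMO of each host gene (rows) in each fraction (panels), with 95% intervals; filled points pass adjusted p under 0.05 in limma. Filled points sit left of zero on chromatin only, for Snhg5, Snhg6 and Snhg8, and right of zero in the nucleoplasm for Snhg6, Snhg15, Snhg17 and 1110038B12Rik.

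Comparing U1 with U2 AMO directly, both at 75 µM, needs no control library. On chromatin Snhg6 was lower after U1 than after U2 AMO, 10.9, 12.8 and 11.7 against 22.6, 29.3 and 29.1 FPKM (log2 difference -1.17 ± 0.17 (SE), adjusted p = 0.000264), and it stayed lower after centring (-0.57, adjusted p = 0.0244). Snhg17 was lower too (log2 difference -0.92 ± 0.22 (SE), adjusted p = 0.00621; centred -0.31 (adjusted p = 0.367)). These 2 lower members of 8 stood against 45.4% of 1256 lncRNAs (5.33% higher, 40% lower) that passed. After centring Snhg6 alone was lower, and Snhg20 was higher (0.99, adjusted p = 0.0186). With the block, 1110038B12Rik (-0.78, adjusted p = 0.00075), Snhg8 (-0.39, adjusted p = 0.0116) and Snhg15 (-0.34, adjusted p = 0.0421) were lower as well. Their adjusted p ran from 0.00075 to 0.806 over all alternatives, and centring turned Snhg8 to 0.22 and Snhg15 to 0.27. In the nucleoplasm Snhg6 (log2 difference -1.34 ± 0.32 (SE), adjusted p = 0.00905), 1110038B12Rik (-1.31, adjusted p = 0.013) and Snhg17 (-1.20, adjusted p = 0.0176) were lower after U1 AMO (background 24.7% of 1142 lncRNAs (3.5% higher, 21.2% lower)), and all 3 stayed lower after centring, where Epb41l4aos was higher (0.95, adjusted p = 0.00376). The call of 1110038B12Rik was lost without U2 AMO library 1 (adjusted p up to 0.0631), and that of Snhg17 was lost without U1 AMO library 2 or U2 AMO library 1 (adjusted p up to 0.0832). In whole cells Epb41l4aos was higher after U1 than after U2 AMO, 34.0, 27.2 and 36.7 against 17.7, 17.2 and 21.9 FPKM (log2 difference 0.78 ± 0.16 (SE), adjusted p = 0.00825). 1110038B12Rik was lower (-0.47, adjusted p = 0.0277; background 16.5% of 1251 lncRNAs (7.51% higher, 9.03% lower)). The latter call was lost without any 1 of its libraries other than U1 AMO library 1 (adjusted p up to 0.0777), with only the 2 groups fitted, and after centring (-0.36, adjusted p = 0.0547), which made Snhg8 higher (0.37, adjusted p = 0.0447). No member differed past the threshold in the cytoplasm in limma (background 3.06% of 1242 lncRNAs (2.74% higher, 0.322% lower); 2 members at an unadjusted p under 0.05), where Snhg5 (-0.64) passed with the block (adjusted p = 0.0195; 0.0195 to 0.354 over all alternatives).

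Whether chromatin and soluble fractions changed unequally was tested with a shift, the chromatin log2 change less the average of the cytoplasm and nucleoplasm changes. After U1 AMO, 1110038B12Rik (shift -1.13 ± 0.41 (SE), adjusted p = 0.0487), Snhg15 (shift -1.07 ± 0.31 (SE), adjusted p = 0.0177) and Snhg17 (shift -1.03 ± 0.32 (SE), adjusted p = 0.0252) moved away from chromatin, 3 of 8 members where 19.8% of 1277 lncRNAs (0.0783% higher, 19.7% lower) passed. The median was -0.71 for the hosts and -0.66 for all. Chromatin shares went from 25.5% ± 1.34 to 16.4% ± 2.89 for Snhg15, from 39.4% ± 4.03 to 27.4% ± 2.50 for Snhg17 and from 26.0% ± 6.69 to 13.0% ± 5.57 for 1110038B12Rik (SD, n = 3). The call of 1110038B12Rik was lost without any 1 of its libraries other than control AMO chromatin library 3, U1 AMO chromatin library 2, U1 AMO cytoplasm library 2, control AMO nucleoplasm library 1 and U1 AMO nucleoplasm library 2 (adjusted p up to 0.178). That of Snhg15 was lost without control AMO chromatin library 1 (adjusted p up to 0.058). That of Snhg17 was lost without control AMO chromatin library 1, control AMO chromatin library 2, U1 AMO chromatin library 2 or U1 AMO chromatin library 3 (adjusted p up to 0.072). The numbers paired U1 AMO with control libraries within each of the 3 fractions. Pairing between fractions was not checked, although the block of this fit gives each number 1 effect across all 3. With the block Snhg6 also passed (-0.74, adjusted p = 0.0912 without and 0.0475 with the block). Its adjusted p ran from 0.0171 to 0.912 over all alternatives, and centring turned it to 0.09. After centring none of these 4 passed, nor did any member after U2 or U1+U2 AMO in either scaling. In limma 3 members had an unadjusted p under 0.05 after U2 AMO (background 0.548% of 1277 lncRNAs (0% higher, 0.548% lower)) and 3 after U1+U2 AMO (8.38% of 1277 lncRNAs (0% higher, 8.38% lower)).

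**Figure D3:**
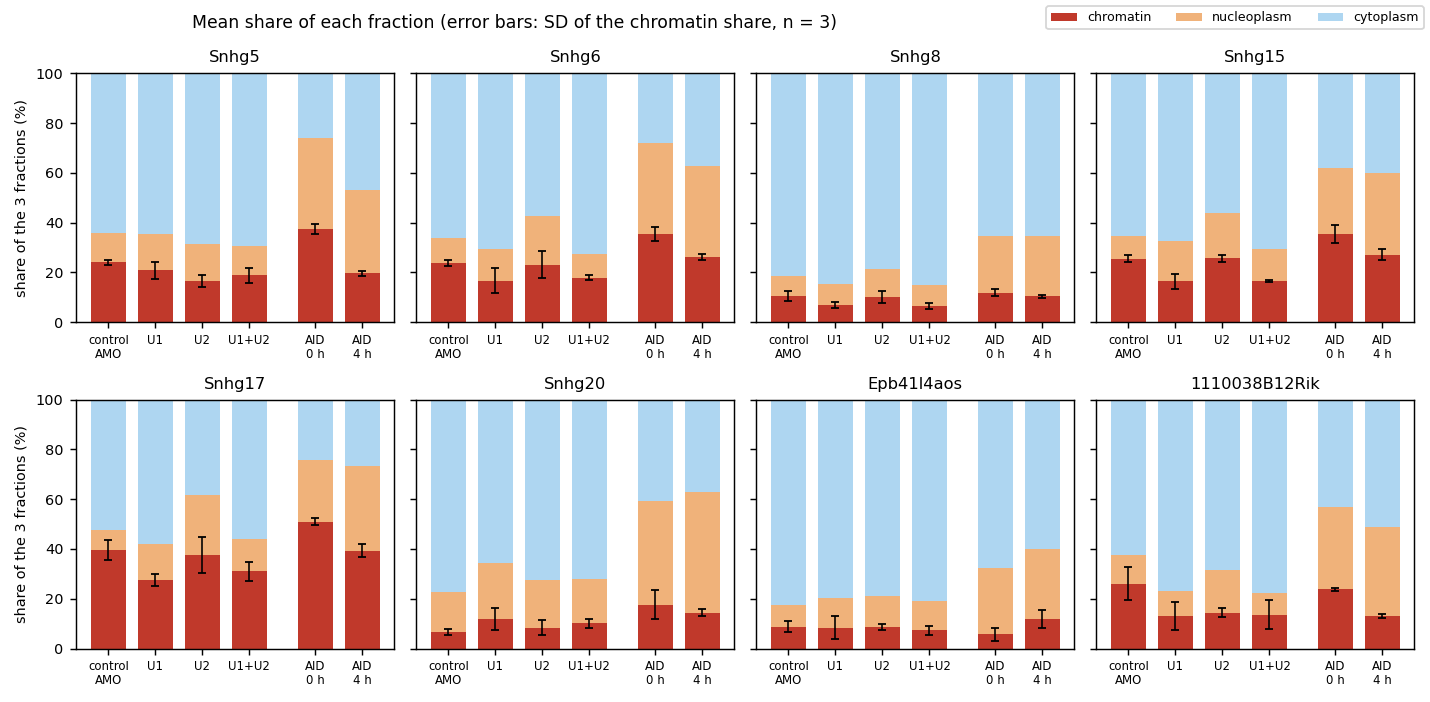
Mean share of each host RNA on chromatin, in nucleoplasm and in cytoplasm, in percent of the 3 fractions' summed FPKM, for 4 AMO groups and the degron line at 0 h and 4 h; error bars are the SD of the chromatin share over 3 library numbers. Snhg17 has the tallest chromatin bar in each group, and Snhg5 goes from 37.4% to 19.7% on chromatin in degron cells.

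After 4 h of IAA the total RNA of Snhg6 and 1110038B12Rik was lower on chromatin, and that of Snhg20 and Epb41l4aos higher. Snhg6 went from 29.6, 23.9 and 31.5 to 14.8, 12.6 and 14.2 FPKM (log2 change -1.02 ± 0.17 (SE), adjusted p = 0.000746) and 1110038B12Rik from 91.4, 76.8 and 75.6 to 50.5, 58.8 and 51.3 (log2 change -0.60 ± 0.16 (SE), adjusted p = 0.00999). Neither overlapped between 0 h and 4 h. Epb41l4aos went from 6.95, 4.23 and 1.65 to 18.2, 12.7 and 6.76 FPKM, with library 3 low and library 1 high at both times and overlap between the groups (log2 change 1.64 ± 0.47 (SE), adjusted p = 0.0148). Snhg20 went from 14.3, 10.5 and 10.3 to 18.0, 15.8 and 15.0 without overlap (log2 change 0.48 ± 0.18 (SE), adjusted p = 0.0455). The call was lost without any 1 of its libraries other than 0 h library 1 (adjusted p up to 0.149). These 2 rises and 2 falls stood against 49.8% of 1260 lncRNAs (3.17% higher, 46.7% lower) that passed, and the medians were -0.20 for the hosts and -0.65 for all. Relative to the median lncRNA 5 members were higher and none lower: Epb41l4aos at 2.38 (adjusted p = 0.00852), Snhg20 at 1.23 (adjusted p = 0.000308), Snhg8 at 0.92 (adjusted p = 0.00624), Snhg17 at 0.61 (adjusted p = 0.0132) and Snhg5 at 0.49 (adjusted p = 0.00341). Snhg6 was then at -0.28 (adjusted p = 0.0983) and 1110038B12Rik at 0.14 (adjusted p = 0.386).

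PolyA RNA is mainly processed RNA, and on chromatin it fell for 3 hosts and rose for 2. Snhg6 fell from 48.2, 48.2 and 55.2 to 21.3, 19.8 and 23.9 FPKM (log2 change -1.22 ± 0.09 (SE), adjusted p = 4.93e-05) and 1110038B12Rik from 199.9, 201 and 223 to 105, 104 and 105 (log2 change -0.99 ± 0.05 (SE), adjusted p = 2.07e-05). Snhg5 fell less, from 175, 177 and 164 to 137, 131 and 138 (log2 change -0.34 ± 0.05 (SE), adjusted p = 0.00113). Snhg17 rose from 35.3, 37.2 and 36.1 to 57.0, 61.0 and 61.1 (log2 change 0.72 ± 0.06 (SE), adjusted p = 6.14e-05) and Snhg20 from 32.1, 28.4 and 32.0 to 40.4, 43.6 and 37.5 (0.39, adjusted p = 0.00562). None of these 5 overlapped between times. The 2 rises and 3 falls stood against 45.8% of 1217 lncRNAs (8.96% higher, 36.8% lower) that passed, with medians of -0.11 for the hosts and -0.37 for all. Centring kept Snhg6 at -0.74 (adjusted p = 0.00037) and 1110038B12Rik at -0.51 (adjusted p = 0.000387) as lower, turned Snhg5 to 0.14 (adjusted p = 0.106), and gave 4 higher members, Epb41l4aos and Snhg8 among them. Without centring Epb41l4aos was at 0.60 (adjusted p = 0.0531), Snhg8 at -0.05 and Snhg15 at -0.18. For Snhg17 the total RNA of the same fraction gave -0.14 (95% interval -0.56 to 0.28) where polyA RNA gave 0.72 (0.59 to 0.85); the difference between the 2 kinds of library was not tested, since their tables were scaled separately.

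PolyA RNA of whole cells rose for 7 of the 8 hosts at 4 h and fell for Snhg6. These FPKM name no spike-in scaling, so the changes are relative to the other RNA of each library. All 8 passed, where 20% of 1135 lncRNAs (13% higher, 7.05% lower) did. Among the 474 lncRNAs kept by a filter on the mean, 97 were higher and 44 lower. Snhg5 went from 116, 113 and 120.3 to 271, 262 and 276 FPKM, 2.31 times its level at 0 h (log2 change 1.21 ± 0.06 (SE), adjusted p = 3.61e-06). Snhg17 went from 14.6, 18.1 and 16.3 to 32.3, 37.2 and 35.3 (2.13 times; 1.09, adjusted p = 0.000188), and Snhg20 from 32.8, 25.5 and 31.3 to 56.8, 66.9 and 62.2 (2.08 times; 1.06, adjusted p = 0.000273). These 3 had the highest folds of the 8. Snhg8 rose 1.66-fold (0.74, adjusted p = 0.000536), Epb41l4aos 1.52-fold (adjusted p = 0.0254), Snhg15 1.28-fold (adjusted p = 0.0312) and 1110038B12Rik 1.24-fold (adjusted p = 0.0132). Snhg6 went the other way, from 32.2, 33.0 and 32.9 to 23.6, 25.8 and 23.7 FPKM (log2 change -0.42 ± 0.08 (SE), adjusted p = 0.00623). In all 8 genes the libraries at 0 h and 4 h did not overlap, and the median change was 0.67 against 0.10 for all lncRNAs. The weaker calls were sensitive to single libraries. The call of Epb41l4aos was lost without any 1 of its libraries other than 0 h library 3 and 4 h library 1 (adjusted p up to 0.0926). The call of Snhg15 was lost without any 1 of its libraries other than 4 h library 1 (adjusted p up to 0.0982), and the call of 1110038B12Rik was lost without 0 h library 1 or 0 h library 2 (adjusted p up to 0.056). After centring Snhg15 was at 0.27 (adjusted p = 0.0981) and the other 7 still passed.

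**Figure D4:**
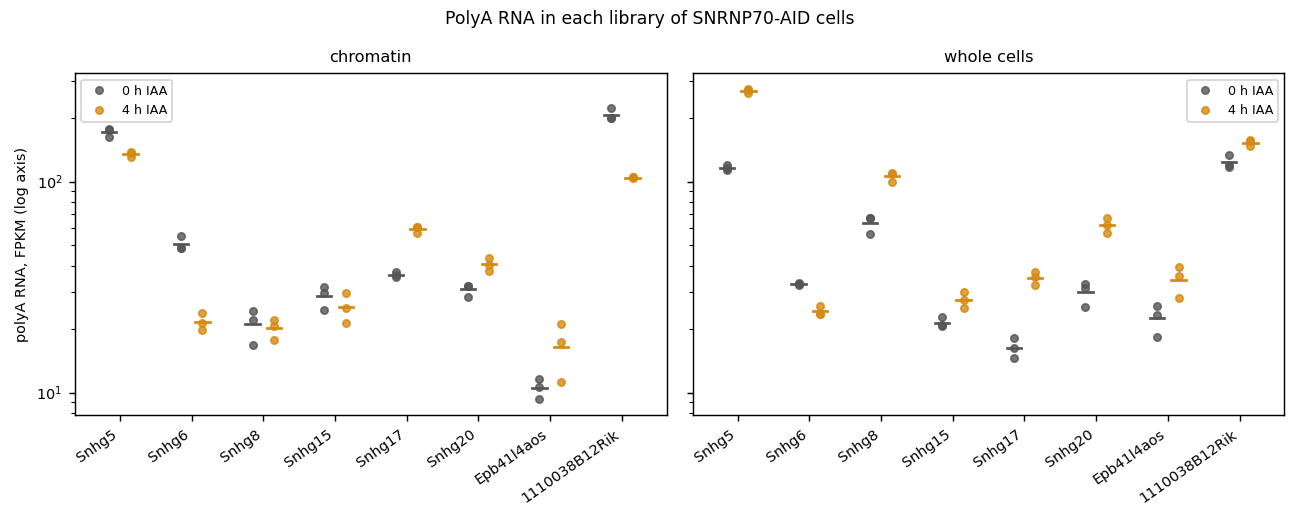
PolyA RNA FPKM (log axis) of each host gene in every library of SNRNP70AID cells, on chromatin and in whole cells; grey points are 0 h, orange points 4 h of IAA and bars group means. On chromatin Snhg5, Snhg6 and 1110038B12Rik are lower at 4 h, while in whole cells only Snhg6 is.

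Total RNA of whole cells, also without named spike-in scaling, rose for 5 members, where 11.8% of 1261 lncRNAs (5.31% higher, 6.5% lower) passed. The median was 0.54 against -0.07. Epb41l4aos (18.6, 19 and 17.8 to 33.0, 38.0 and 56.9 FPKM; log2 change 1.16 ± 0.19 (SE), adjusted p = 0.0108) and Snhg20 (17.5, 15.9 and 19.7 to 36.6, 41.9 and 37.1; 1.12, adjusted p = 0.0021) reached 2.31 and 2.18 times their level at 0 h. Snhg5 rose from 84.9, 84.0 and 83.0 to 158, 172 and 146 (0.91, adjusted p = 0.00189). Smaller rises were seen for Snhg8 (0.60, adjusted p = 0.0355) and 1110038B12Rik (0.47, adjusted p = 0.0139). The call of Snhg8 was lost without any 1 of its libraries other than 0 h library 2 (adjusted p up to 0.0977), and that of 1110038B12Rik was lost without any 1 of its libraries other than 0 h library 2 and 4 h library 3 (adjusted p up to 0.0534). Snhg17 (0.49, adjusted p = 0.0565), Snhg15 (0.16) and Snhg6 (-0.33) did not pass; Snhg17 did after centring (0.54, adjusted p = 0.0336).

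In the cytoplasm Snhg5 was the only member to pass. Its total RNA went from 64.0, 88.0 and 77.0 to 229.8, 209 and 221 FPKM, 2.88 times the level at 0 h (log2 change 1.54 ± 0.15 (SE), adjusted p = 0.00359), with background of 3.67% of 1089 lncRNAs (2.66% higher, 1.01% lower). 1110038B12Rik was at 160.0, 145 and 137 and 201, 209 and 216, also without overlap (log2 change 0.50 ± 0.12 (SE), adjusted p = 0.0761), and the other 6 lay between -0.17 (Snhg6) and 0.64 (Snhg20). The nucleoplasm showed 3 rises and 1 fall (background 16% of 1209 lncRNAs (5.21% higher, 10.8% lower); medians 0.49 and -0.23). Snhg20 (log2 change 0.94 ± 0.22 (SE), adjusted p = 0.0236), Snhg17 (log2 change 0.71 ± 0.17 (SE), adjusted p = 0.0263) and Snhg5 (log2 change 0.53 ± 0.15 (SE), adjusted p = 0.0447) rose, and Snhg6 fell from 30.8, 29.4 and 26.4 to 22.3, 17.4 and 18.8 FPKM (log2 change -0.57 ± 0.15 (SE), adjusted p = 0.0405). None of the 4 overlapped between times, but each call depended on single libraries. The call of Snhg20 was lost without 0 h library 2, 4 h library 1 or 4 h library 2 (adjusted p up to 0.0797). The call of Snhg17 was lost without any 1 of its libraries other than 4 h library 3 (adjusted p up to 0.0852). The call of Snhg5 was lost without any 1 of its 6 libraries (adjusted p up to 0.149), and the call of Snhg6 was lost without any 1 of its libraries other than 4 h library 1 (adjusted p up to 0.147). Relative to the median lncRNA all 7 members other than Snhg6 were higher in the nucleoplasm, and Snhg6 was at -0.31 (adjusted p = 0.0869).

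New RNA, read by SLAM-seq as T-to-C reads scaled to spike-in RNA, rose for most hosts in the soluble fractions. These values are not per length, so they compare conditions and not genes, and the labels give chromatin as total and the soluble fractions as polyA RNA. In the nucleoplasm 5 of 8 members rose and none fell, where 27.3% of 490 lncRNAs (17.8% higher, 9.59% lower) passed, with medians of 1.04 and 0.21. Epb41l4aos went from 618, 714 and 419 to 2192, 1893 and 2288 (3.64 times; log2 change 1.88 ± 0.23 (SE), adjusted p = 2.02e-14), and Snhg20 from 2427, 2859 and 2245 to 5929.7, 6028 and 7071 (2.53 times; 1.34, adjusted p = 1.32e-08). Snhg17 (1.22, adjusted p = 6.59e-06), 1110038B12Rik (1.22, adjusted p = 3.81e-07) and Snhg8 (0.87, adjusted p = 0.000719) rose as well. Every call in the nucleoplasm held without any 1 library and in edgeR on the recovered reads. In the SLAM-seq fits of nucleoplasm and cytoplasm, limma replaced each lncRNA's own spread by the trend over all lncRNAs. These very small p-values therefore do not measure the spread of the single gene. Snhg15 (0.62, adjusted p = 0.051), Snhg5 (0.51, adjusted p = 0.0584) and Snhg6 (-0.56, adjusted p = 0.0561) did not pass; Snhg6 was lower after centring (-0.73, adjusted p = 0.000634).

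The cytoplasm also gave 5 rises and no fall (background 10.6% of 423 lncRNAs (6.62% higher, 4.02% lower); medians 0.92 and 0.07). Snhg17 went from 617, 847 and 431 to 1644, 1934 and 1490.5 (log2 change 1.45 ± 0.34 (SE), adjusted p = 0.000769) and 1110038B12Rik from 3479, 4729 and 3511 to 9841, 10167 and 8389 (log2 change 1.29 ± 0.30 (SE), adjusted p = 0.000527). Snhg20 (1.14, adjusted p = 0.00474), Snhg8 (1.02, adjusted p = 0.011) and Snhg5 (0.82, adjusted p = 0.0471) followed. None of these 5 overlapped between conditions. With 1 library left out, the adjusted p of 1110038B12Rik ran from 4e-12 to 0.027 in limma, and that of Snhg17 from 4.31e-09 to 0.0371. The call of Snhg20 was lost without IAA library 1 or IAA library 2 (adjusted p up to 0.0736). The call of Snhg8 was lost without any 1 of its libraries other than no-IAA library 2 (adjusted p up to 0.102). The call of Snhg5 was lost without any 1 of its libraries other than no-IAA library 2 (adjusted p up to 0.284). EdgeR on the recovered reads called the other 4 and not Snhg5 (adjusted p = 0.0734). Without a filter on low values neither Snhg8 (adjusted p = 0.0785) nor Snhg5 (adjusted p = 0.153) passed in limma, and with a pseudocount of 1 Snhg5 did not (adjusted p = 0.099). New Snhg6 RNA was at 1790.4, 2537 and 1431 without and 1591, 1373 and 1268 with IAA (log2 change -0.41 ± 0.32 (SE), adjusted p = 0.524). Epb41l4aos (0.78, adjusted p = 0.0987) passed after centring (0.78, adjusted p = 0.000842).

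New RNA on chromatin rose for 3 members, where 39.2% of 423 lncRNAs (5.67% higher, 33.6% lower) passed, and the medians were 0.15 and -0.41. Epb41l4aos went from 71.9, 93.4 and 103 to 193, 348 and 295 (3.12 times; log2 change 1.53 ± 0.23 (SE), adjusted p = 0.00018). Snhg20 went from 471, 387 and 442 to 609.7, 971 and 782 (log2 change 0.83 ± 0.18 (SE), adjusted p = 0.00223), and Snhg17 from 138, 171 and 137 to 188, 355 and 252 (log2 change 0.77 ± 0.22 (SE), adjusted p = 0.0144), the last lost without no-IAA library 3 or IAA library 2 (adjusted p up to 0.0678). In all 3 the IAA libraries lay above every library without IAA. Snhg6 was at 200.3, 194 and 220.3 without and 76.0, 227 and 95.2 with IAA, where IAA library 2 lay above all 3 libraries without IAA (log2 change -0.74 ± 0.30 (SE), adjusted p = 0.0671). Snhg8 was at 0.45 (adjusted p = 0.0649) and passed after centring (1.02, adjusted p = 0.000956).

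**Figure D5:**
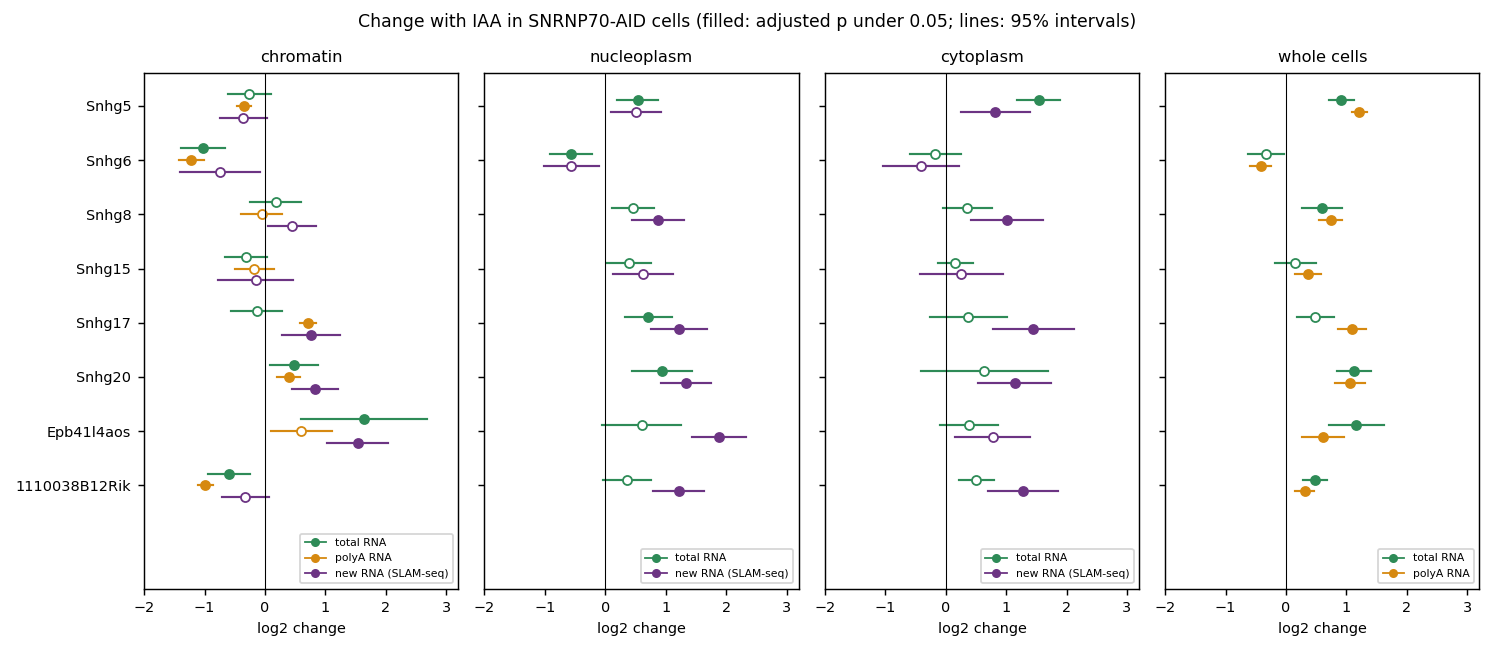
Log2 change with IAA in SNRNP70AID cells of each host gene (rows) in each fraction (panels), with 95% intervals, for total RNA and polyA RNA at 4 h and for new RNA by SLAM-seq; filled points pass adjusted p under 0.05 in limma. Snhg6 is left of zero in every panel, and Snhg20 right of zero in every panel.

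Chromatin and soluble fractions of degron cells changed unequally for several hosts. In total RNA the change on chromatin was below that of the soluble fractions for Snhg5 (shift -1.29 ± 0.17 (SE), adjusted p = 0.000144), 1110038B12Rik (shift -1.03 ± 0.17 (SE), adjusted p = 0.000725), Snhg6 (-0.65, adjusted p = 0.031) and Snhg15 (-0.58, adjusted p = 0.0207), 4 of 8 where 19.5% of 1277 lncRNAs (0.313% higher, 19.2% lower) passed. Medians were -0.62 and -0.57. The chromatin share of Snhg5 went from 37.4% ± 2.08 to 19.7% ± 0.982, that of 1110038B12Rik from 23.8% ± 0.682 to 13.1% ± 0.774 and that of Snhg6 from 35.5% ± 2.76 to 26.1% ± 1.17 (SD, n = 3). Snhg5 kept its call after centring (-0.68, adjusted p = 0.00623), while 1110038B12Rik was at -0.42 (adjusted p = 0.0818), Snhg6 at -0.04 (adjusted p = 0.956) and Snhg15 at 0.03 (adjusted p = 0.958). The call of Snhg15 was lost without 0 h chromatin library 2 or 4 h chromatin library 3 (adjusted p up to 0.0639), and the call of Snhg6 was lost without 0 h chromatin library 1, 0 h chromatin library 3, 4 h chromatin library 2, 4 h chromatin library 3, 0 h nucleoplasm library 3 or 4 h nucleoplasm library 1 (adjusted p up to 0.086). Epb41l4aos was the one member with a positive shift, 1.15 (adjusted p = 0.139), and passed as higher after centring (1.76, adjusted p = 0.0416). Its chromatin share was 5.70% ± 2.63 at 0 h and 11.9% ± 3.74 at 4 h.

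For polyA RNA the shift was chromatin minus whole cells. Chromatin FPKM were scaled to spike-in RNA and whole-cell FPKM name no such scaling, so a general fall on chromatin enters every shift. Whole cells also include the chromatin RNA. In this shift 6 of 8 members were lower (background 18.6% of 1234 lncRNAs (0.162% higher, 18.4% lower), medians -0.73 and -0.49). Snhg5 (shift -1.55 ± 0.07 (SE), adjusted p = 2.12e-08) and 1110038B12Rik (shift -1.29 ± 0.08 (SE), adjusted p = 7.58e-07) had the most negative values and passed after centring too (-0.98 (adjusted p = 1.16e-05) and -0.72 (adjusted p = 0.00027)). Snhg6 (-0.80), Snhg8 (-0.79), Snhg20 (-0.67) and Snhg17 (-0.37, adjusted p = 0.0474) passed only without centring, which turned Snhg17 to 0.20 (adjusted p = 0.511). The call of Snhg17 was lost without any 1 of its libraries other than 0 h whole-cell library 2 and 4 h whole-cell library 1 (adjusted p up to 0.106). In SLAM-seq the labels give chromatin as total and the soluble fractions as polyA RNA, so its shift cannot tell fraction from kind of RNA. New RNA gave shifts for 1110038B12Rik (shift -1.58 ± 0.26 (SE), adjusted p = 0.000189) and Snhg5 (shift -1.02 ± 0.27 (SE), adjusted p = 0.0207), 2 of 8 where 4.88% of 492 lncRNAs (0% higher, 4.88% lower) passed. The call of Snhg5 was lost without no-IAA chromatin library 3 or IAA chromatin library 1 (adjusted p up to 0.0987) and with centring (-0.33, adjusted p = 0.468), and that of 1110038B12Rik was also past the threshold after centring (-0.88, adjusted p = 0.00913).

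Other snoRNA hosts of the tables (Gas5, Snhg1, Snhg3, Snhg12 and Dancr in every table) are given beside these 8. In polyA RNA of whole cells at 4 h all 5 rose, Snhg1 by 1.17 and Gas5 by 0.95 on the log2 scale, next to the 7 of 8 above and 13% of 1135 lncRNAs. In cytoplasmic total RNA all 5 rose as well, led by Snhg12 (log2 change 1.87 ± 0.15 (SE), adjusted p = 0.00119), where of the 8 only Snhg5 passed and 2.66% of 1089 lncRNAs were higher. On chromatin U2 AMO raised 3 of the 5, Snhg1 (1.80, adjusted p = 0.00014), Gas5 (1.15, adjusted p = 0.00431) and Snhg12 (1.12, adjusted p = 0.00452), none of the 8 and 2.79% of 1256 lncRNAs. U1 AMO lowered Gas5 (-0.69) and Dancr (-0.68) and raised Snhg12 (1.12) on chromatin. There 51.8% of 1256 lncRNAs were lower and 5.1% higher, and the median was -0.80. Differences between the 2 sets of hosts were not tested.

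Likeness was measured as Pearson's r of log2 group means over the 16 AMO groups, which share fractions and control libraries, among the 640 more abundant lncRNAs, and is a description. Snhg15 was most like Snhg3 (r = 0.967) and Snhg17 most like Snhg1 (r = 0.915), with Gas5 and Dancr also among its 10 nearest. 1110038B12Rik had 5430416N02Rik nearest (r = 0.977) and Snhg5, Snhg6 and Snhg3 among its 10 nearest. The nearest to Snhg5 was Gm12976 (r = 0.980), to Snhg6 Gm37123 (r = 0.971), to Snhg8 AA465934 (r = 0.991), to Snhg20 Platr26 (r = 0.975) and to Epb41l4aos 2900097C17Rik (r = 0.982). Among the 10 nearest of Snhg5, Snhg6, Snhg8 and Snhg20 there was no host of either list.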

How the data were processed

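Total and polyA RNA tables hold FPKM of the authors, which the deposited column names call spike-in normalized for the fractions. SLAM-seq tables hold a signal that the authors derived from T-to-C read counts and spike-in RNA; 100% stood within 0.1 read of whole reads in 18 libraries. The submitters' processing notes name CASAVA, TopHat and Cufflinks and build mm10. The sources used here give no settings, annotation or strand. Rows with a shared identifier were left out (3 for AMO, 3 for degron total RNA, 2 for polyA RNA, 0 for SLAM-seq). A control AMO column naming no fraction (1 in all) was not used, which left 101 library columns of 112 samples in the series. Whole-cell control AMO library 3 was the only AMO library without another column, so this column is probably that library. Peak lists, TT-seq and ChIRP were not analysed here.

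Log2 of the value plus a pseudocount (0.2 for AMO, 0.1 for degron total and polyA RNA, 8 for SLAM-seq) was compared in limma 3.58.1 (R 4.3.3, moderated with an intensity trend), and p-values were adjusted by Benjamini-Hochberg over every lncRNA tested, with a threshold of 0.05. A lncRNA was tested where at least 3 libraries of the fit reached the pseudocount; all 8 members passed this in every comparison. AMO fits held all 4 groups of a fraction. Fold changes on this scale understate changes of low genes. EdgeR 4.0.16 was run on recovered SLAM-seq reads: it called 157 of 423 lncRNAs on chromatin, 38 of 423 in cytoplasm and 122 of 490 in nucleoplasm. Some of the fits, without the shifts, were also run on simulated data with known changes. These data held no general fall on chromatin and no effect of replicate number, so they cannot show how the tests behave under either.

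Replicate numbers were taken to pair libraries where every same-number correlation of deviations from the group mean was over 0.1: all AMO chromatin (lowest 0.284) and nucleoplasm (0.148) comparisons, and cytoplasm for U1 AMO against control (0.107) and against U2 AMO (0.196). The block of this pairing is given where it changes a call.

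The members, the lists and the named genes (the 8 members, the nearest lncRNA of each and up to 4 other hosts per comparison that passed) were chosen with earlier results of these data known. Figures were drawn with matplotlib 3.10.9.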

Additional observations from a re-analysis of the deposited data

Results flagged for a closer look

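Some host RNAs changed differently on chromatin and in the soluble fractions (whole cells for polyA RNA), by the interaction term of the limma fit. Libraries entered this fit unpaired. The log2 change on chromatin minus that elsewhere was -1.13 for 1110038B12Rik, -1.07 for Snhg15 and -1.03 for Snhg17 after U1 AMO. In total RNA of SNRNP70AID cells it was -1.29 for Snhg5, -1.03 for 1110038B12Rik, -0.65 for Snhg6 and -0.58 for Snhg15. In polyA RNA, with whole cells not scaled to spike-in RNA, it was -1.55 for Snhg5, -1.29 for 1110038B12Rik and -0.80 for Snhg6. It was -0.79 for Snhg8, -0.67 for Snhg20 and -0.37 for Snhg17 there. In SLAM-seq, with total RNA on chromatin and polyA RNA in the soluble fractions, it was -1.58 for 1110038B12Rik and -1.02 for Snhg5. The median lncRNA moved the same way, and of these 15 values 4 passed after centring: Snhg5 in total and polyA RNA, and 1110038B12Rik in polyA RNA and SLAM-seq.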

How the results depend on the processing

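Of 264 tests of a member in a comparison, 85 passed in limma, and 55 of these passed whichever library was left out. Every other setting kept 53 of the 85, and 41 held under all settings and all libraries left out. A further 56 tests passed only under another setting. Over the 9 sets of comparisons the number of member calls ran, with 1 library left out, from 3 to 5 for U1 AMO (4 with all libraries), 5 to 6 for U2 AMO (6), 3 to 4 for U1+U2 AMO (3), 5 to 7 for U1 against U2 AMO (7), 10 to 14 for degron total RNA (14), 10 to 14 for polyA RNA (13), 10 to 15 for SLAM-seq (13), 12 to 17 for shifts (15) and 9 to 10 for control fractions (10). Centring gave 11 calls for U1 AMO, 7 for U1+U2 AMO and 5 for shifts. A filter on the mean gave 7 for U1 AMO. The replicate block gave 11 calls for U1 AMO, 10 for U1+U2 AMO and 11 for U1 against U2 AMO. Where the libraries share only a number, the block added 4 calls in total RNA of degron nucleoplasm (Snhg8, Snhg15, Epb41l4aos and 1110038B12Rik), 1 each on polyA chromatin (Epb41l4aos), in SLAM-seq cytoplasm (Epb41l4aos) and in U1+U2 AMO cytoplasm (1110038B12Rik), Snhg17 in whole cells with U1 and U1+U2 AMO, and shifts of Snhg15 (U1+U2 AMO), Snhg17 and Epb41l4aos (degron total RNA), and it lost Snhg8 in total RNA and Snhg15 in polyA RNA of whole cells.

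Centring turned the sign of these log2 values. After U1 AMO on chromatin they became 0.28 for 1110038B12Rik, 0.52 for Snhg5 and 0.52 for Snhg8. After U1+U2 AMO they became 0.033 for 1110038B12Rik, 0.35 for Snhg15, 0.22 for Snhg5 and 0.13 for Snhg8, and for U1 against U2 AMO 0.27 for Snhg15 and 0.22 for Snhg8. On degron chromatin they became 0.14 for 1110038B12Rik, 0.61 for Snhg17 and 0.49 for Snhg5 in total RNA, and 0.14 for Snhg5 and 0.43 for Snhg8 in polyA RNA. Shifts became 0.094 for Snhg6 after U1 AMO, 0.031 for Snhg15 in total RNA, and 0.040 for Snhg15 and 0.20 for Snhg17 in polyA RNA. Chromatin against soluble fractions became -1.05 for Snhg15 and -0.15 for Snhg17 with control AMO, and -1.71 for Snhg15, -0.82 for Snhg17, -1.59 for Snhg5 and -1.72 for Snhg6 at 0 h. Values near 0 changed sign with 1 library left out: Snhg15 after U1 AMO on chromatin (-0.013 to 0.19), Snhg17 in total RNA (-0.25 to 0.021) and Snhg8 in polyA RNA (-0.21 to 0.057) on degron chromatin, and 1110038B12Rik (-0.23 to 0.24) and Snhg15 (-0.057 to 0.17) between control AMO fractions. None of these 5 passed.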

Other observations

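The hosts were also looked at by the length of the snoRNA genes inside them, a split chosen after the values were seen and not tested. The 3 hosts whose annotated snoRNA genes are 59 to 74 bases long, Snhg5, Snhg6 and 1110038B12Rik, were those whose polyA RNA fell on chromatin at 4 h of IAA (-0.34, -1.22 and -0.99 on the log2 scale). Among the 4 hosts with snoRNA genes of 130 to 133 bases, Snhg17 rose (0.72), and Snhg8 (-0.05), Snhg15 (-0.18) and Epb41l4aos (0.60) did not pass. After centring Snhg5 was no longer lower (0.14). The split did not hold in whole cells, where Snhg5 had the highest fold of the 8 and Snhg6 was the only one lower.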
